A study of Mus musculus with 59 samples.

Results

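The genes of 9 transcription regulators of the B-lymphocyte lineage (Ebf1, Pax5, Irf4, Tcf3, Foxo1, Ikzf1, Bcl11a, Lef1 and Pou2af1) were followed through RNA-seq of mouse bone marrow stem and progenitor cells in which Daxx, Pu.1 or both had been targeted. They were chosen by name, and all 9 were found among the 51810 genes of each table (51812 in the untimed tables). The values came from 59 libraries in 10 tables, and each table was normalised on its own, so levels were compared only within a table.

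B cells arise from multipotent progenitors in steps that are set by transcription factors. The E protein E2A (encoded by Tcf3) and Foxo1 act with Ikaros (Ikzf1) and Bcl11a in early lymphoid progenitors, Ebf1 then starts the B-cell programme, and Pax5 holds cells to it. Irf4 and the octamer co-activator Pou2af1 (OCA-B) act in pre-B cells and again in antibody-secreting plasma cells, and Lef1, a mediator of Wnt signalling, is transcribed in pro-B cells and in T-cell precursors. Pu.1, encoded by Spi1, is an Ets factor of both myeloid and B cells, and Daxx is a chaperone for the histone variant H3.3.

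All mice were C57BL/6, and all libraries came from sorted bone marrow cells. Control mice carried intact Daxx (Daxx +/+, WT) and KO mice a floxed Daxx gene (Daxx F/F). In the libraries taken 3 and 24 weeks post induction of Cre (w.p.i.), the Cre recombinase was Mx1Cre, which is under an interferon-responsive promoter, was induced with pI:pC and also acts in cells outside the marrow. DKO mice carried Daxx F/F and Pu.1 F/F together. A separate Pu.1 line compared Pu.1 +/+ (WT) with Pu.1 F/F (KO) at 3 w.p.i., also with Mx1Cre. Long-term stem cells (LT-HSC) were taken 3 days post induction (d.p.i.) from RosaCreER mice, in which tamoxifen activates Cre, with Daxx +/+, Daxx +/F or Daxx F/F. The earliest KLS and GMP libraries, called untimed here, carried neither a time nor a Cre line on their labels. The study's methods describe duplicate KLS and GMP libraries of donor (CD45.2+) cells from irradiated recipients of Mx1Cre bone marrow, which match these 8 in cell type and number, although their labels do not mention transplantation.

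KLS cells were Lin-c-Kit+Sca-1+ progenitors, a mixture of stem and multipotent cells. GMP, the progenitors of granulocytes and monocytes, were sorted as Lin- and Sca-1- cells positive for c-Kit, CD34 and CD16/32. The multipotent subsets MPP3 (Flk2-CD48+CD150-) and MPP4 (Flk2+CD48+CD150-) and the LT-HSC were also gated as Il-7Ra-. The lineage panel, which removes mature cells, held antibodies to B220 (B cells), Gr-1 and CD11b (neutrophils and other myeloid cells), TER-119 (erythroid cells) and CD3e, CD4 and CD8 (T cells), but not CD138, a surface marker of plasma cells. In bulk libraries such as these, a lower value from fewer cells of a type cannot be told apart from one caused by less RNA in each cell.

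The untimed tables held 2 WT and 2 KO libraries for each cell type, and those of 3 w.p.i. held 3 WT, 3 KO and 2 DKO for each. At 3 w.p.i. the number of 1 WT animal was in no label, and it is called unnumbered. This animal and the libraries of the Pu.1 line took their genotype from column-name endings in companion tables. The other GMP libraries at 3 w.p.i. took their genotype from the KLS library of the same animal. At 24 w.p.i. each table held 2 WT and 4 Daxx-deleted libraries, a split read from the ending of the column names in a companion table, and the KO and DKO libraries among the 4 were not told apart. The 4 animals of the MPP3 and MPP4 libraries and the 7 LT-HSC libraries could not be assigned a genotype, so no genotype comparison was made there.

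Gene reads per library ranged from 3045852 to 30136629, and 12200 to 30291 genes were above 0. Daxx separated the groups of each table with Daxx genotypes, with all deleted libraries below all WT libraries. It had 33.9 and 29.7 against 119 and 138 normalised counts in untimed KLS and 82.6, 102 and 72.2 against 423, 467 and 505 in KLS at 3 w.p.i. Spi1 did not check the Pu.1 genotype in this way. In KLS at 3 w.p.i. it stood at 3330.4 and 2993 in the libraries labelled DKO and 1676, 1669 and 2320.0 in WT. In KLS of the Pu.1 line it stood at 2920.5 and 1307 in the libraries assigned to Pu.1 KO and 2764 and 2080.1 in WT. Reads from exons outside a floxed segment still count towards the gene. Directions given below rest on the labels for DKO at 3 w.p.i. and on column-name endings for the Pu.1 line. Rag1, Rag2, Igkc and Ms4a1, which B-lineage cells transcribe, were listed at 0 in all 59 libraries. So was Alas2, the haem synthesis gene of erythroid cells, also in the WT KLS libraries at 24 w.p.i. that held 14496 and 15738 normalised counts of the globin gene Hbb-bs. A listed 0 may therefore be a gene that was not counted, and it does not show that these genes were silent.

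Compared per kilobase of exon, in normalised counts of the WT KLS libraries at 3 w.p.i., Ikzf1 was the most abundant of the 9 with a mean of 2119, followed by Bcl11a at 567 and Tcf3 at 516. Pou2af1 (126), Foxo1 (110), Irf4 (58.0) and Ebf1 (32.8) were lower, and Pax5 (4.95) and Lef1 (4.10) were the lowest. In this order the 3 WT libraries of Bcl11a overlapped those of Tcf3, the ranges of Pou2af1, Foxo1, Irf4 and Ebf1 overlapped from each to the next, and those of Pax5 and Lef1 overlapped. Ikzf1 was above Bcl11a, Tcf3 above Pou2af1, and Ebf1 above Pax5 in every WT library. In WT GMP of the same time, Ikzf1 (1762) and Tcf3 (486) had the highest means, and Bcl11a (118) and Foxo1 (24.7) were lower. The 9 genes thus fell into a set found in every library (Ikzf1, Tcf3 and Bcl11a, and at lower levels Foxo1, with at least 109 normalised counts) and a set whose values ranged from a few counts or none to several orders of magnitude more (Ebf1, Pax5, Lef1, Irf4, Pou2af1).

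The genes lie, on GRCm38, at chr11:44617317-45008091 (Ebf1, plus strand), chr4:44524757-44710487 (Pax5, minus), chr13:30749226-30766976 (Irf4, plus), chr10:80409514-80433647 (Tcf3, minus), chr3:52268336-52353221 (Foxo1, plus), chr11:11685003-11772926 (Ikzf1, plus), chr11:24078056-24174123 (Bcl11a, plus), chr3:131110471-131224356 (Lef1, plus) and chr9:51213708-51240080 (Pou2af1, plus). Irf4 and Tcf3 overlapped no other annotated gene. Each of the other 7 overlapped between 1 and 4, mostly antisense or short non-coding genes. Since the strand setting of the counting is not given in the sources used here, reads of such pairs cannot be told apart.

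Ebf1 with Pax5 and Irf4 with Pou2af1 were among the pairs whose values moved together most closely in KLS libraries, so their promoters are shown. Each line gives up to 250 bases upstream of a RefSeq start site on GRCm38.p6, read 5′ to 3′ on the strand of the gene, with motif matches in capitals. All 9 members were matched to RefSeq promoters. Orientation was checked by looking for bases after the start in annotated transcripts, and none were found for Pax5, Bcl11a and Lef1. The Pax5 window lies beyond the annotated gene, which ends at 44710487, so its orientation was not checked in this way.
Ebf1, chr11:44619978-44620227, plus strand: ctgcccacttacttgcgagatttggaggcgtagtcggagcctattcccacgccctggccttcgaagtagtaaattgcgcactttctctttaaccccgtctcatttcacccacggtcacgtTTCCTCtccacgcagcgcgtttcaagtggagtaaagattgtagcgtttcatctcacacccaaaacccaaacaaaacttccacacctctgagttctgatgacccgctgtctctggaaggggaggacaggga
Pax5, chr4:44710695-44710944, minus strand: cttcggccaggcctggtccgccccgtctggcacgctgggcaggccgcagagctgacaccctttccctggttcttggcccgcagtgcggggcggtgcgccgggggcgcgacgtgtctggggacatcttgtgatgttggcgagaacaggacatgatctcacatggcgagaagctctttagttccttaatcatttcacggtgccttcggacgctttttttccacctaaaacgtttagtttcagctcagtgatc
Irf4, chr13:30748983-30749225, plus strand: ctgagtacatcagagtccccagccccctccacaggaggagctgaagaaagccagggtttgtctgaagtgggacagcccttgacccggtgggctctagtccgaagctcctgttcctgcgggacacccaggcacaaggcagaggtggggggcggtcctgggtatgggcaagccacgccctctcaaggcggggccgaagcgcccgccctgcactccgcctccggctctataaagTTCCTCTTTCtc
Pou2af1, chr9:51213440-51213689, plus strand: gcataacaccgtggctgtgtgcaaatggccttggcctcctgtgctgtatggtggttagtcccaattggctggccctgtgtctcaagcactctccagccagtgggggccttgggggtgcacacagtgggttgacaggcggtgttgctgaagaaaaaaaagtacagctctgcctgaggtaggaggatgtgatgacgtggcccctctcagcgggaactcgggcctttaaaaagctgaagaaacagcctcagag

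On both strands 7 motifs were searched. The Ebf1 window, which lies inside the annotated span of the gene but outside its exons, held 1 match to the PU.1 motif GAGGAA, on the opposite strand with its first base at position -130 from the start. The Irf4 window ended in TTCCTCTTTC at position -19, where the PU.1 motif and the IRF-Ets composite motif overlap on the opposite strand. The Pax5 and Pou2af1 windows held no match to any of the 7. Over 32851 mouse promoters of the same length, the PU.1 motif was found in 23.3% and the IRF-Ets motif in 2.30%. The others were the EBF palindrome (0.779%), the E-box CAGGTG bound by E proteins (17.2%), the forkhead motif TGTTTAC (3.17%), the Lef/Tcf motif CTTTGA (13.8%) and the octamer ATGCAAAT (1.60%). A match describes letters and is not evidence of binding.

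The first comparison asked how loss of Daxx altered these factors in the untimed KLS libraries. All 7 factors other than Tcf3 and Ikzf1 were lower in KO, and none was higher (23.1% of 13508 genes were called, 10.6% higher and 12.5% lower). Over the 9 factors the fold had a median of -3.38 on the log2 scale, beside 0.03 over all genes tested. Genes were tested if their mean over the table was at least 10. Pax5, Irf4, Lef1 and Pou2af1 met this only through their WT libraries. The filter thus favoured a lower call for them, and they enter both the count and the median. The largest losses were in Ebf1, Pax5, Irf4 and Pou2af1. Ebf1, the initiator of the B-cell programme, stood at 540.2 and 1489.9 normalised counts in WT and 19.7 and 9.7 in KO (log2 fold change -5.92 with an SE of 0.475, adjusted p = 6.12e-05). The WT libraries differed 2.76-fold between themselves, and both were far above KO.

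Pax5, the factor that holds B cells to their fate, fell from 153 and 167 in WT to 2.19 and 4.55 in KO (log2 fold change -5.26 with an SE of 0.487, adjusted p = 0.000131). Irf4 had 224 and 149.9 in WT and 0 and 2.12 in KO (log2 fold change -6.70 with an SE of 0.685, adjusted p = 0.000222). Its partner in plasma cells and pre-B cells, Pou2af1, had 194 and 143 against 0 and 2.42 (log2 fold change -6.50 with an SE of 0.703, adjusted p = 0.000312). Both KO libraries held at most 8 reads of either gene, so these fitted folds depend on the pseudocount of 1. Lef1 had 44.7 and 50 in WT and 2.19 and 5.76 in KO (log2 fold change -3.38 with an SE of 0.649, adjusted p = 0.00655).

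The losses were smaller among the factors of earlier progenitors. Foxo1, which acts upstream of Ebf1, had 526.4 and 553 in WT and 241 and 291 in KO (log2 fold change -1.02 with an SE of 0.146, adjusted p = 0.00142). Bcl11a, a zinc-finger factor of lymphoid progenitors, had 3060.4 and 3596 against 1985 and 1881 (log2 fold change -0.78 with an SE of 0.11, adjusted p = 0.00134). Tcf3 overlapped between the groups at 461 and 512 in WT and 548 and 473 in KO, and so did Ikzf1 at 6126 and 7195 in WT and 6710.1 and 7369 in KO. The calls of Foxo1, Bcl11a and Lef1 were lost without KO 1 or without KO 2 (4 and 3 of the 9 called), and that of Ebf1 also without KO 2 (adjusted p = 0.0584).

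Known partners and targets of the network moved in both directions. Of 20 early B-cell genes, 12 were tested, 8 were lower and 1 was higher. In this and the following lists, the filter favoured a call in 1 direction for genes that met it only through 1 group. How many genes did so was not determined, and they enter the counts. Dntt, which adds untemplated bases to rearranging immunoglobulin genes, fell by 7.97 on the log2 scale, and Blnk, an adaptor of the pre-B-cell receptor, fell by 7.17, while Cd79b rose by 1.25. Of 20 other regulators of the network, 19 were tested, 7 were lower (among them Ikzf3, -4.49, and Id2, -3.03) and 3 higher (among them Spi1, 1.42, and Ikzf2, 0.95).

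Genes of other cell types changed in the same libraries. Of 10 plasma-cell genes, 7 were tested, of which 5 were lower and 1 was higher. The 10 genes summed to 6989.5 and 2186 in WT and 667 and 796 in KO. Jchain, which links secreted immunoglobulin, had 3336 and 1290.1 in WT and 6.56 and 18.5 in KO. All 8 of 8 genes of myeloid progenitors were higher (sums 1469 and 877 in WT, 12567 and 16214 in KO). Of 10 stem-cell genes 8 were lower and 2 higher (sums 37402 and 37838 in WT, 10008 and 9140.2 in KO). Genes of mature B cells (4 of 6 tested lower) summed to 1942 and 1874 in WT and 222 and 182 in KO. The part of these lists in the changes of the B-lineage factors was not tested. Depth also moved with genotype, since the WT libraries were the shallower ones, at 3857858 and 3942149 gene reads.

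In the untimed GMP libraries the factors of the B-cell programme proper were barely transcribed. Pax5, Irf4, Lef1 and Pou2af1 were below the filter of a mean of 10, and no library held more than 18.1 normalised counts of any of them. Ebf1 overlapped, at 16.9 and 64.2 in WT and 34.5 and 12.2 in KO. Of the 5 factors tested, Bcl11a and Ikzf1 were higher in KO and Tcf3 was lower (33% of 12744 genes were called, 16.6% higher and 16.5% lower). Bcl11a had 1299.6 and 1158 in WT and 1498 and 1697 in KO (log2 fold change 0.38 with an SE of 0.104, adjusted p = 0.0215). Ikzf1, which encodes Ikaros, had 4845 and 5375 against 5955 and 6765 (log2 fold change 0.31 with an SE of 0.0963, adjusted p = 0.0334), and Tcf3 462 and 469.9 against 324 and 313 (log2 fold change -0.55 with an SE of 0.12, adjusted p = 0.00743).

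These GMP calls were small in size and depended on single libraries. No member was called without WT 2, and 1 was called without WT 1 or without KO 2. Of 6 early B-cell genes tested Bank1 was higher (3.45) and Cd72 lower (-3.16). Of 18 network regulators 6 were higher, led by Id1 (1.23) and Erg (1.03), and 7 lower, led by Ikzf3 (-4.33) and Flt3 (-2.74). Of 8 neutrophil genes 7 were tested, 3 were higher and 2 lower (Camp, -0.82, and Mmp8, -2.88). Their sum, 4558 and 6264 in WT and 34038 and 49086 in KO, was carried by S100a8 (mean 2417 in WT, 18063 in KO) and S100a9 (1891 in WT, 19804 in KO). Stem-cell genes were mostly lower (6 of 8 tested, 1 higher) and genes of myeloid progenitors mostly higher (5 of 8, 1 lower). The part of these lists in the calls was not tested.

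At 3 w.p.i. Ebf1, Pax5, Lef1 and Ikzf1 lay higher in every Daxx KO library of KLS cells than in every WT library, but no member passed the test (0.257% of 15200 genes were called, 0.184% higher and 0.0724% lower, and 1777 genes had an unadjusted p under 0.05). How many of all genes separated the groups in this way was not counted, here or in later comparisons. Groups this small can separate by chance. By edgeR no member was called among 30 genes, and by DESeq2 Ebf1 and Pax5 were called higher among 342. Ebf1 stood at 3512, 23895 and 1063 normalised counts in KO 1, KO 2 and KO 3, and at 218, 519 and 221 in WT 1, WT 2 and the unnumbered WT library (log2 fold change 3.93 with an SE of 0.965, adjusted p = 0.18). All 3 KO values lay above all WT values, and the KO libraries differed 22.5-fold among themselves.

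Pax5 followed the same order, with 384, 4998 and 80.6 in KO and 29.2, 72.4 and 30 in WT (log2 fold change 3.72 with an SE of 1.28, adjusted p = 0.34). Lef1 had 223, 3010.2 and 169 in KO and 23.8, 34.4 and 50 in WT (log2 fold change 3.78 with an SE of 0.898, adjusted p = 0.171). KO 2 held the highest value of each of these 3 genes. Ikzf1 also lay above WT in every KO library, at 16028, 14835 and 14469 against 12024, 12096 and 12599 (log2 fold change 0.30 with an SE of 0.128, adjusted p = 0.406). Tcf3 (2448, 4401 and 2248 in KO, 1812, 2184 and 2257 in WT), Foxo1 (890.3 to 1931 in KO, 731 to 1159 in WT) and Bcl11a (5194 to 8292 in KO, 6261 to 8406 in WT) overlapped.

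The calls of Irf4 and Pou2af1, which act together in plasma cells, turned on 1 library. Irf4 had 444, 1199.6 and 924 in KO and 47.6, 34.4 and 771 in WT 1, WT 2 and the unnumbered library, so that the last lay within the KO range (log2 fold change 2.85 with an SE of 0.95, adjusted p = 0.328). Pou2af1 had 406, 1984 and 908 in KO and 33.5, 43.3 and 885 in WT (log2 fold change 3.03 with an SE of 1.05, adjusted p = 0.346). Without the unnumbered library, when each library was left out in turn, both were called higher in KO, Irf4 with a log2 fold change of 4.25 (adjusted p = 0.000935) and Pou2af1 with 4.53 (adjusted p = 0.0043).

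The unnumbered library also stood apart in genes of plasma cells and neutrophils. The 10 plasma-cell genes summed to 1442, 964 and 14374 in WT 1, WT 2 and the unnumbered library, and to 4755, 36950.4 and 10698 in KO. Jchain had 452, 109 and 7513 and Prdm1, the master regulator of plasma cells, 30.3, 21.2 and 293 in the same order of WT libraries, while Igkc was listed at 0 in all. Neutrophil genes summed to 2250.1, 495 and 26425 in WT and 1282, 5823 and 869 in KO. Whether these had a part in the Irf4 and Pou2af1 values was not tested.

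Downstream of the factors, 1 of 18 early B-cell genes tested was called, Dntt, with 10360.5, 18887 and 6767 in KO and 1761, 2314 and 1409 in WT (log2 fold change 2.62, adjusted p = 0.029). None of 20 network regulators and none of 9 plasma-cell genes tested was called, and 1 of 6 genes of plasmacytoid dendritic cells was higher (sums 8163, 8489 and 7899.7 in KO and 6687, 6694 and 5773 in WT).

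The DKO libraries, which share their WT controls with the KO comparison, were compared with WT and with KO. Bcl11a was the only member called against WT (17.6% of 15200 genes were called, 9.24% higher and 8.4% lower). It had 2990.3 and 3655 in DKO and 7753, 8406 and 6261 in WT (log2 fold change -1.17 with an SE of 0.218, adjusted p = 0.00709). It was also the only member called between DKO and KO (log2 fold change -1.05 with an SE of 0.218, adjusted p = 0.0108), where 15.4% of 15200 genes were called, 8.17% higher and 7.22% lower. In neither comparison were the 9 members called more often than genes at large. Without DKO 1 neither call was kept (log2 fold change -1.02 with adjusted p = 0.0876, and -0.91 with adjusted p = 0.117).

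Ebf1 in DKO, at 969.6 and 216, lay below all 3 KO libraries (log2 fold change -3.28 with an SE of 1.08, adjusted p = 0.0696) and overlapped WT. It was called lower than KO without KO 3 (-4.32, adjusted p = 0.0193) and by DESeq2 (-4.00, adjusted p = 0.0144). Pax5 stood at 356 and 43.4 in DKO and overlapped both other groups, as did Tcf3 at 2328 and 1849. Foxo1 at 888 and 698 (log2 fold change -0.66 with an SE of 0.309, adjusted p = 0.189) and Ikzf1 at 12751 and 11304 (log2 fold change -0.33 with an SE of 0.143, adjusted p = 0.159) were below every KO library.

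Irf4, Pou2af1 and Lef1 lay above every WT library in DKO without passing the test. Irf4 had 837 and 938 in DKO (log2 fold change 3.01 with an SE of 1.06, adjusted p = 0.0779), Pou2af1 1133 and 971 (log2 fold change 3.25 with an SE of 1.18, adjusted p = 0.0857) and Lef1 332 and 189.9 (log2 fold change 2.83 with an SE of 1, adjusted p = 0.0795). Without the unnumbered WT library, Irf4 (4.42, adjusted p = 0.000154) and Pou2af1 (4.75, adjusted p = 0.000478) were called higher. Lef1 was called higher when KO was left out of the fit (adjusted p = 0.01).

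Of the early B-cell genes, 18 were tested, and in DKO against WT Fcrla was higher (2.51) and Btk lower (-2.96). Against KO, Dntt (457 and 1094 in DKO, log2 fold change -3.95) and Btk (-3.02) were lower. Among 20 network regulators, 4 were higher and 6 lower against WT, with Id1 (3.28), an inhibitor of E proteins, and Ets1 (2.80) the largest rises and Flt3 (-2.66) and Mef2c (-1.53) the largest falls. Against KO, 4 were higher and 7 lower, led by Id1 (4.63), Ets1 (1.99), Flt3 (-3.68) and Irf8 (-2.58).

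Genes of other cells also differed in the DKO libraries. Of 8 genes of myeloid progenitors 5 were higher than in WT (sums 110164 and 113221 in DKO, 4849, 13145 and 44301 in WT), and 4 of 10 stem-cell genes were lower (sums 28153 and 36524 in DKO, 91366, 87998 and 63222 in WT). Neutrophil genes summed to 164435 and 133176 in DKO, plasma-cell genes to 40809.9 and 19493 (3 of 9 tested were higher than WT, namely Prdm1, 2.92, Derl3, 2.34, and Xbp1, 2.04) and T-cell genes to 1648 and 555 against 143, 109 and 279 in WT. The part of these lists in the values of Bcl11a, Irf4, Pou2af1 and Lef1 was not tested.

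**Figure D1:**
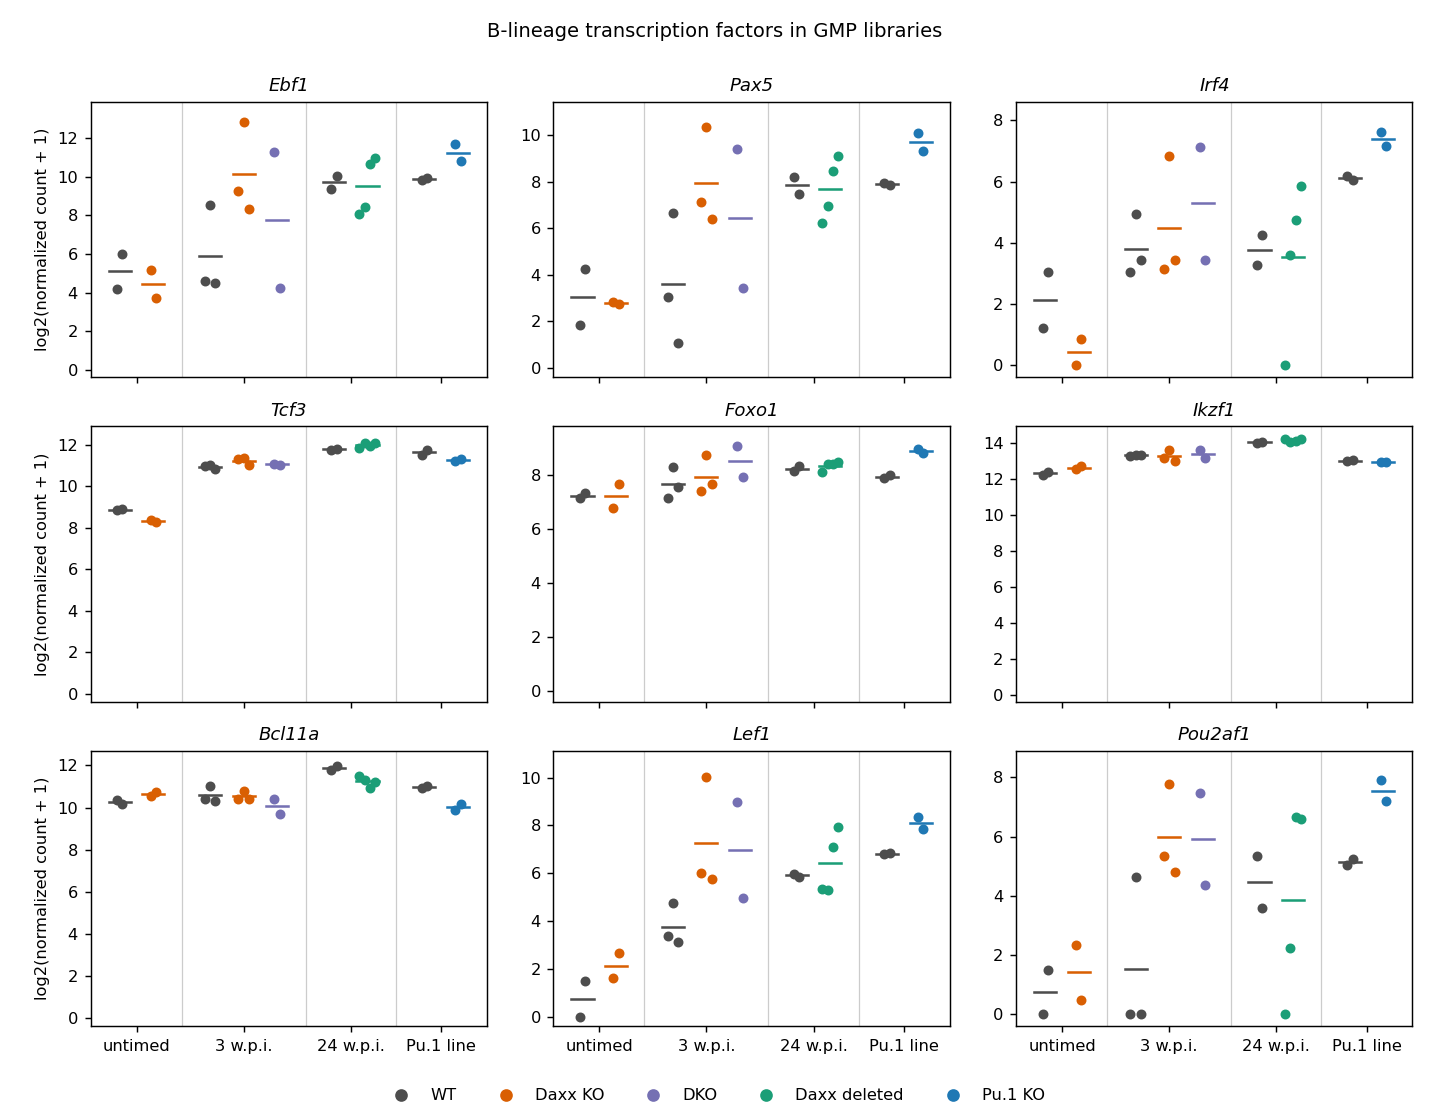
Level of each factor in every GMP library, drawn as for the KLS libraries with log2(normalised count + 1) on the vertical axis and bars at group means of the log2 values. At 3 w.p.i. Ebf1 was high in KO 2 (7232) and DKO 1 (2483) and near 20 in WT 1, the unnumbered WT library and DKO 2, while the Pu.1 line showed 6 factors higher in KO.

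In GMP at 3 w.p.i. the factors varied widely between animals of 1 genotype. No member was called in any of the 3 comparisons. For KO against WT 0.0948% of 13714 genes were called, 0.0656% higher and 0.0292% lower. For DKO against WT 0.292% of 13714 genes were called, 0.211% higher and 0.0802% lower. For DKO against KO 0.0583% of 13714 genes were called, 0.0583% higher and 0% lower. Unadjusted p-values under 0.05 were found for 433, 961 and 1104 genes. By edgeR 11, 41 and 20 genes and by DESeq2 79, 263 and 280 genes were called, with no member among them. Ebf1 had 605, 7232 and 316 in KO 1, KO 2 and KO 3, 22.9, 368 and 21.8 in WT 1, WT 2 and the unnumbered WT library, and 2483 and 17.8 in DKO 1 and DKO 2. Thus 5 libraries were above 300 and the other 3 near 20, and WT and deleted animals were found on both sides.

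Pax5 was split the same way, with KO at 138, 1298 and 83, WT at 7.27, 99.7 and 1.09 and DKO at 681 and 9.86. Lef1 lay above WT in each KO and DKO library, at 63.5, 1034 and 53.4 in KO, 504 and 30.6 in DKO and 9.35, 25.6 and 7.62 in WT. Its log2 fold change was 3.53 for KO (SE 1.23, adjusted p = 1) and 3.24 for DKO (SE 1.37, adjusted p = 0.664). Pou2af1 was above WT in KO, with 40, 219.5 and 26.7 against 0, 23.8 and 0 (log2 fold change 4.43 with an SE of 1.35, adjusted p = 0.946), and had 179 and 19.7 in DKO. Irf4 overlapped throughout, with KO at 7.81, 112 and 9.88, WT at 7.27, 30 and 9.79 and DKO at 140.0 and 9.86.

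The factors of earlier progenitors differed less. Tcf3 was above every WT library in KO (2531, 2583 and 2104 against 1990.4, 2072 and 1822, log2 fold change 0.29 with an SE of 0.155, adjusted p = 1) and in DKO (2182 and 2081, log2 fold change 0.12 with an SE of 0.173, adjusted p = 1). Foxo1, Ikzf1 and Bcl11a overlapped in all 3 comparisons, with Foxo1 between 140.2 and 547, Ikzf1 between 8105 and 12699 and Bcl11a between 827 and 2059 over the 8 libraries. Of the early B-cell genes, 16 were tested and Dntt alone was called higher in KO, at 1019.5, 2042 and 1139.6 against 9.35, 42.4 and 13.1 in WT (log2 fold change 6.17, adjusted p = 0.023), with 504 and 46.4 in DKO.

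At 24 w.p.i. the KLS libraries of mice with Daxx deleted lay above WT in Ebf1, Lef1 and Ikzf1 and below WT in Irf4 and Pou2af1, and no member passed the test (0.807% of 16485 genes were called, 0.309% higher and 0.497% lower, and 1370 genes had an unadjusted p under 0.05). The share of all genes whose groups lay apart in this way was not counted. By edgeR 137 genes and no member were called, and by DESeq2 536 genes, among them Ebf1, Lef1 and Irf4. Ebf1 had 3645, 4265, 6627 and 2638 in the 4 deleted libraries a to d and 2336 and 1266 in the 2 WT libraries (log2 fold change 1.24 with an SE of 0.362, adjusted p = 0.256). Lef1 had 435, 351, 719 and 187 against 115 and 128 (log2 fold change 1.64 with an SE of 0.493, adjusted p = 0.275). Both groups were separate for each of these genes, as they were for Ikzf1 at 23712, 22808, 27683 and 27803 against 20515 and 20342 (log2 fold change 0.31 with an SE of 0.174, adjusted p = 0.764).

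Irf4 had 250.4, 714, 303 and 462 in the deleted libraries and 1044 and 1297 in WT (log2 fold change -1.55 with an SE of 0.403, adjusted p = 0.186). Pou2af1 had 352, 923, 489 and 602 against 1286 and 1283 (log2 fold change -1.21 with an SE of 0.351, adjusted p = 0.254). Without deleted library b, which held the highest deleted values of both, Irf4 (-1.83, adjusted p = 0.0271) and Pou2af1 (-1.45, adjusted p = 0.0431) were called lower. Pax5 overlapped at 591, 829.9, 929.9 and 500.3 against 1339 and 855, and so did Tcf3, Foxo1 and Bcl11a, whose deleted libraries ran over 4888 to 7394, 1109 to 1959 and 7646 to 12069 against 5690.1 to 5880.5, 1152 to 1499 and 9259 to 12744 in WT.

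Plasma-cell genes, taken as a sum, were also lower in each deleted library than in WT. Their sums were 11585, 14269, 6930.3 and 8272 in the deleted libraries and 21116 and 18986 in WT, with none of 9 tested called. Jchain had 4507, 4757, 2204 and 3479 against 9975 and 10287. Genes of mature B cells summed to 2777, 6328, 3243 and 4580.3 in deleted and 8422 and 8545 in WT, with none of 7 tested called. Neutrophil genes were higher (6 of 8 called, sums 46744 to 80614 in deleted and 9141 and 10923 in WT) and 5 of 6 erythroid genes lower (sums 469 to 1517 in deleted and 24775 and 28425 in WT). What part these had in the values of the factors was not tested. Bank1, a scaffold of B-cell signalling, was the 1 of 17 early B-cell genes tested that was called, lower with a log2 fold change of -2.55 (adjusted p = 0.042), and none of 19 network regulators was called.

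In GMP at 24 w.p.i. Bcl11a was the only member called, lower in the deleted libraries (3.63% of 16894 genes were called, 2.23% higher and 1.4% lower). It had 2847, 2571, 1954 and 2368 in deleted and 3535 and 4041 in WT (log2 fold change -0.65 with an SE of 0.147, adjusted p = 0.0226), and the call was lost without either WT library (adjusted p = 0.147 and 0.225). Tcf3 at 3621, 4339, 3882 and 4358 against 3446 and 3541 (log2 fold change 0.21 with an SE of 0.117, adjusted p = 0.43) and Ikzf1 at 18943, 17124, 17802 and 19134 against 16633 and 16909.7 (log2 fold change 0.12 with an SE of 0.0938, adjusted p = 0.595) lay above WT. Ebf1 split the deleted libraries on either side of WT, with 265, 347, 1639.9 and 1997 in libraries a to d and 671 and 1058 in WT.

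Pax5, Lef1 and Pou2af1 were split in the same manner as Ebf1, with libraries a and b below both WT libraries and c and d above both. For Irf4 c and d were above WT, a was below and b lay between the WT libraries. Pax5 had 74.2, 121, 351 and 543 in deleted and 295 and 175 in WT, and Lef1 39.4, 38.5, 134 and 246 against 62.2 and 56.1. Irf4 had 0, 11, 25.6 and 57.1 against 8.73 and 17.9 and Pou2af1 0, 3.67, 101 and 96.2 against 39.3 and 11.1. Foxo1 overlapped, at 280.3 to 360.4 in deleted and 282 to 321 in WT. Neutrophil genes (7 of 8 called higher) summed to 264853, 249815, 591351 and 651756 in libraries a to d and 84176 and 91492 in WT, so that c and d, the libraries high in Ebf1, Pax5, Lef1 and Pou2af1, were also the highest in these. All 5 erythroid genes tested were lower (sums 288, 223, 266 and 1911 in deleted, 8106 and 9857 in WT), as were 2 of 8 genes of myeloid progenitors and 2 of 9 stem-cell genes (sums 12440.0 to 14528 in deleted, 18319.9 and 17981 in WT). The part of these lists in the Bcl11a call was not tested. Dntt was called higher (log2 fold change 2.12, adjusted p = 0.038), the 1 of 16 early B-cell genes tested, and 3 of 19 network regulators were higher and 2 lower.

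**Figure D2:**
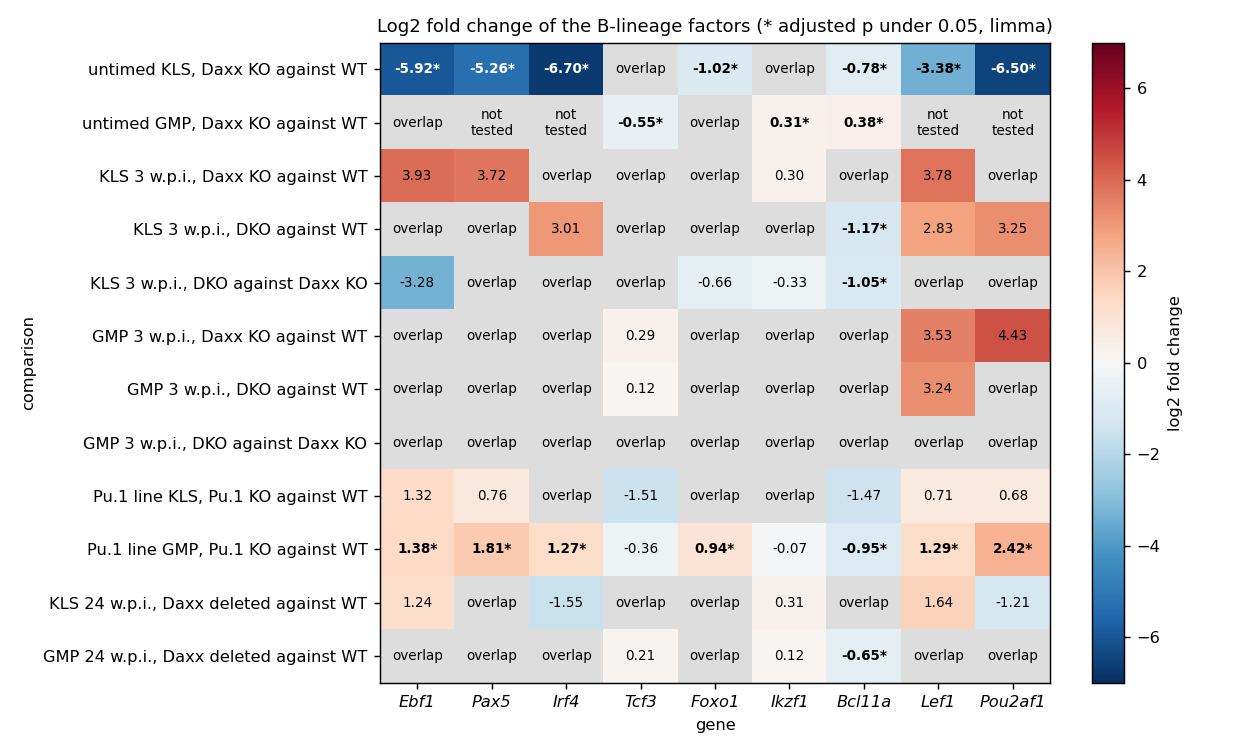
Fitted log2 fold change of each factor (columns) in each comparison (rows), shown where the libraries of the groups did not overlap, with an asterisk at adjusted p under 0.05 by limma and grey where groups overlapped or the gene was not tested. Most calls came from untimed KLS (7 factors lower) and from GMP of the Pu.1 line (6 higher and Bcl11a lower).

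In the Pu.1 line the question was what deletion of Pu.1 alone did to the same factors. In GMP, 6 of the 9 were higher in the libraries assigned to Pu.1 KO and 1 was lower. Of all 19337 genes tested, 17.6% were called, 9.15% higher and 8.49% lower. The median of the 9 factors was 1.27 on the log2 scale, beside -0.002 over all genes. Ebf1 had 3293 and 1819 in KO and 906 and 979 in WT (log2 fold change 1.38 with an SE of 0.236, adjusted p = 7.64e-07), and Pax5 1084 and 639 against 242 and 232 (log2 fold change 1.81 with an SE of 0.263, adjusted p = 1.82e-09). The WT libraries differed 1.08-fold for Ebf1 and 1.04-fold for Pax5.

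Pou2af1 showed the largest change of the 9, with 238 and 146 in KO and 31.7 and 36.6 in WT (log2 fold change 2.42 with an SE of 0.431, adjusted p = 2.61e-06). Irf4 had 195 and 142 against 72 and 65.3 (log2 fold change 1.27 with an SE of 0.387, adjusted p = 0.0124), and Lef1 326 and 226 against 109 and 112 (log2 fold change 1.29 with an SE of 0.33, adjusted p = 0.00232). Foxo1, upstream of Ebf1, had 506 and 450.4 against 238 and 257 (log2 fold change 0.94 with an SE of 0.277, adjusted p = 0.00879). Bcl11a moved the other way, at 953 and 1141 in KO and 1962 and 2066 in WT (log2 fold change -0.95 with an SE of 0.236, adjusted p = 0.00164).

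Tcf3 (2373 and 2537 against 2892 and 3442, log2 fold change -0.36 with an SE of 0.239, adjusted p = 0.269) and Ikzf1 (7855 and 8021 against 8305 and 8372, log2 fold change -0.07 with an SE of 0.268, adjusted p = 0.866) lay below WT without a call, and the sign of the Ikzf1 fold turned under TMM scaling (0.0016) and edgeR (0.027). Without WT a or without WT b only Pax5 and Pou2af1 were called. Of 17 early B-cell genes tested, 9 were higher, led by Igll1 (4.51), a part of the surrogate light chain, and the interleukin-7 receptor gene Il7r (2.81), and 2 were lower, Siglecg (-1.11) and Btk (-0.77). Of 20 network regulators 6 were higher, led by Spib (2.00) and Id1 (1.67), and 3 lower, led by Myb (-0.98) and Ikzf2 (-0.77).

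All 8 neutrophil genes were higher too, with sums of 156608 and 153266 in KO and 34518 and 27800.0 in WT, while plasma-cell genes summed to 2094 and 2805 in KO and 2506 and 2659.8 in WT. T-cell genes (2 of 7 tested higher) summed to 734 and 563 in KO and 335 and 294 in WT. The part of the neutrophil and T-cell genes in the changes of the factors was not tested.

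In KLS of the Pu.1 line no member was called (0.81% of 23459 genes were called, 0.469% higher and 0.341% lower, 6071 had an unadjusted p under 0.05, and no member among the 1919 genes of edgeR or the 1239 of DESeq2). Ebf1 had 10367 and 3813 in KO and 2422 and 2599.9 in WT (log2 fold change 1.32 with an SE of 0.707, adjusted p = 0.21), and Pax5 2649 and 1244 against 1045 and 1103 (log2 fold change 0.76 with an SE of 0.601, adjusted p = 0.375). Lef1 (821 and 819 against 669.6 and 376, log2 fold change 0.71 with an SE of 0.574, adjusted p = 0.385) and Pou2af1 (457 and 277 against 245 and 200, log2 fold change 0.68 with an SE of 0.591, adjusted p = 0.414) were also above WT in both KO libraries. With so few libraries such separation is frequent by chance, and its share over all genes was not counted. KO a held much the higher value of Ebf1, and without KO b the log2 fold change of Ebf1 was 2.05.

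Bcl11a (4476 and 1354 against 6955 and 6686, log2 fold change -1.47 with an SE of 0.712, adjusted p = 0.175) and Tcf3 (2552 and 808 against 4870.0 and 3422, log2 fold change -1.51 with an SE of 0.646, adjusted p = 0.135) were below WT. Without KO a, which leaves KO b alone, each had a log2 fold change of -2.33. KO b was low in Ikzf1 as well, with 15763 and 4310.1 in KO and 18797 and 13245 in WT, and it had the most detected genes of all libraries (30291). The lower and higher KO sums were 38777 and 100858 for the network regulators, against 102095 and 120037 in WT. For stem-cell genes they were 14183 and 34409, against 55997 and 67106 in WT. The part of these differences in the Bcl11a and Tcf3 values was not tested. Irf4 overlapped, at 458 and 204 in KO and 346 and 322 in WT, as did Foxo1 at 1349.7 and 629.8 in KO and 1073 and 1021 in WT. None of 17 early B-cell genes and none of 20 network regulators was called. Over all genes the median log2 fold change was 0.12 here, and the genes called were split 110 higher and 80 lower, against 587 and 201 with TMM scaling.

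The MPP3 and MPP4 libraries came from the same 4 animals, called a to d, at 3 w.p.i. MPP4 cells are biased to the lymphoid lineage and MPP3 cells to the myeloid. No gene was called between them (0% of 20137 by limma, edgeR and DESeq2, with 107, 27 and 132 genes at an unadjusted p under 0.05), and all 9 factors overlapped. With the animal as a block limma called 0 genes, with 290 at an unadjusted p under 0.05. Ebf1 had 10.7, 1546, 143 and 30.6 in MPP3 and 2050.1, 109, 423 and 196 in MPP4 of animals a to d, higher in MPP4 in 3 of 4.

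Pax5 had 3.56, 917, 3.41 and 4.7 in MPP3 and 1151, 117, 9.49 and 5.86 in MPP4, and Lef1 7.13, 606, 0 and 18.8 in MPP3 and 704, 132, 1.9 and 4.56 in MPP4. The libraries MPP3 of animal b and MPP4 of animal a held the highest values of all 3 genes, and they were also those with the most detected genes, 26512 and 25435. T-cell genes summed to 1488 and 1887 in these 2 and to 54.2 to 188 in the other 6, and the part of this in the values was not tested. Without them no gene was called either, at 330 genes with an unadjusted p under 0.05.

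Irf4 (0 to 97.8 in MPP3, 0 to 69.9 in MPP4) and Pou2af1 (0 to 62.2 and 0 to 56.9) were low throughout. Tcf3 (1834 to 2827 and 1925 to 3011), Foxo1 (198 to 471 and 152 to 481), Ikzf1 (6734 to 11241 and 7722 to 10644) and Bcl11a (2536 to 5753 and 2912 to 3823) were present in all 8.

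In the 7 LT-HSC libraries, a to g, the early factors were high and the later ones scarce. Ebf1 was above 0 in all 7, at 193, 256, 284, 161, 91.5, 539 and 6.03. Pax5 had 0, 249.7, 10.3, 177, 0, 195 and 12.1. No library was the highest for both. Irf4 had 2.17, 42, 33.6, 0, 73.2, 2.72 and 0 and Pou2af1 0, 66.1, 0, 0.939, 39.3, 9.79 and 18.1. Lef1 had 0, 9.44, 80, 5.63, 0, 99 and 73.6. Tcf3 ranged over 1430.3 to 2110.3, Foxo1 over 143 to 614, Ikzf1 over 5344 to 8193 and Bcl11a over 3476 to 4820.1.

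**Figure D3:**
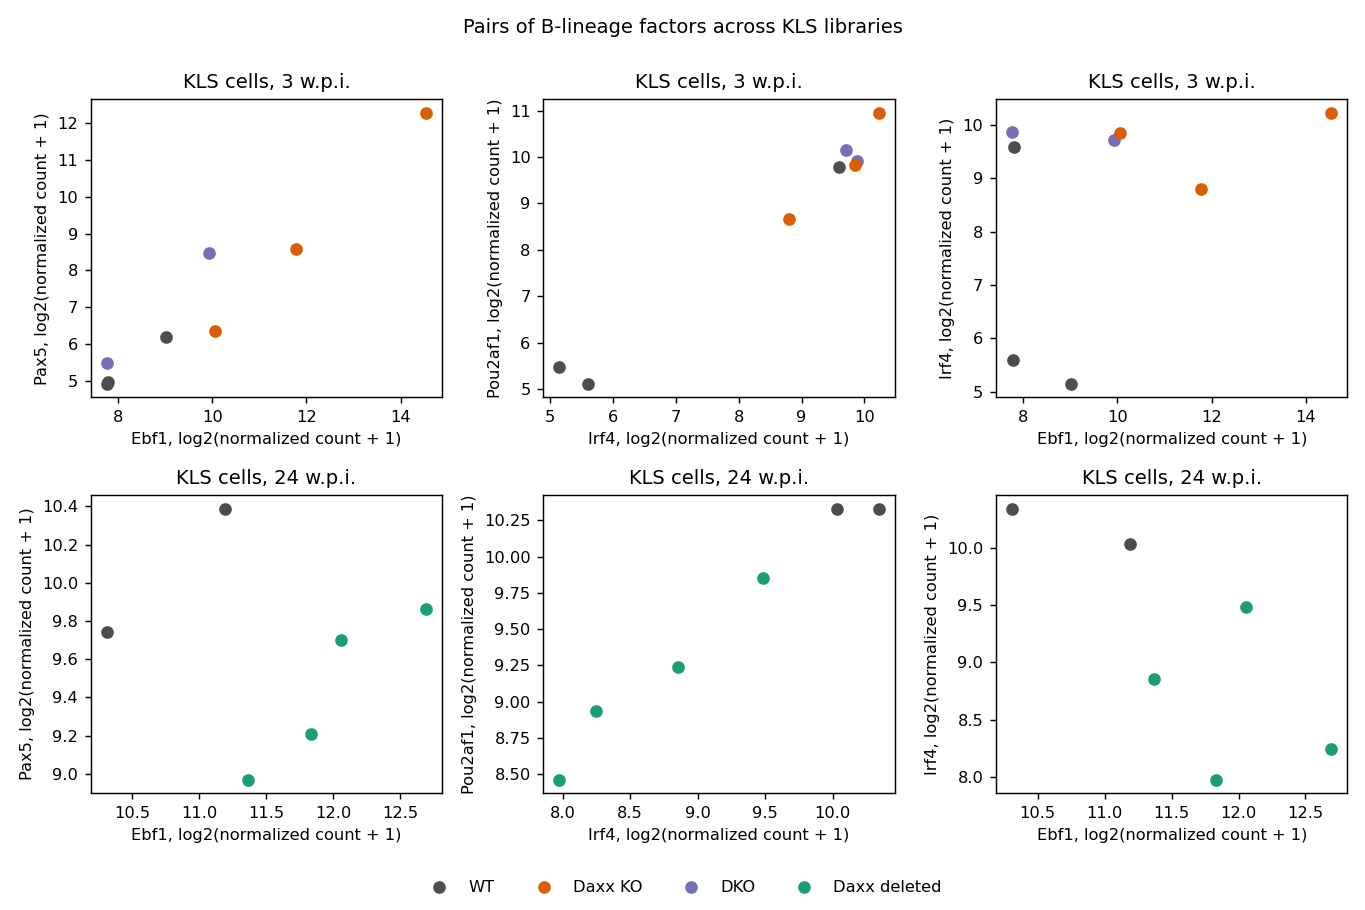
Pairs of factors across KLS libraries at 3 and 24 w.p.i., each point 1 library and both axes log2(normalised count + 1), coloured by genotype. Ebf1 and Pax5 rose together at 3 w.p.i., Irf4 and Pou2af1 lay along a line at both times with WT 1 and WT 2 far below the rest at 3 w.p.i., and KO 2 held the highest value of Ebf1, Pax5, Irf4 and Pou2af1 at 3 w.p.i.

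Co-variation between the members was measured as the correlation of log2(value + 1) across the libraries of a table, with exact permutation tests of 36 pairs per table. In KLS at 3 w.p.i. (8 libraries) 5 pairs by Pearson's r and 8 by Spearman's rho had an adjusted p under 0.05, Irf4 with Pou2af1 among them. Ebf1 and Pax5 were the closest pair that ran over a continuous range, with r 0.963 (exact permutation p = 0.00057, adjusted p = 0.0161) and rho 0.905 (p = 0.00456, adjusted p = 0.0482). Without the 2 libraries farthest from the median r was 0.826, and among deviations from the genotype means it was 0.998. Tcf3 rose with Ebf1 (r 0.920, adjusted p = 0.0161, and 0.704 without 2 libraries) and with Pax5 (r 0.917, adjusted p = 0.0188, and 0.603), both by exact permutation.

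Irf4 and Pou2af1 formed separate clusters in these libraries, since WT 1 and WT 2 were below 50 for both and the other 6 above 400, and no correlation over all 8 is given. Within the 6, r was 0.947 (exact permutation p = 0.0181, where 0.00278 is the smallest possible) and rho 0.829 (p = 0.0583), but r was 0.039 without the 2 farthest libraries, so the relation rested on those. In the 6 KLS libraries at 24 w.p.i. no pair passed the correction. Irf4 with Pou2af1 was again the closest, with r 0.988 (exact permutation p = 0.00556, adjusted p = 0.2), 0.991 without 2 libraries and 0.964 among deviations from the genotype means, and Ebf1 with Lef1 had r 0.902 (exact permutation p = 0.0181, adjusted p = 0.325). In the LT-HSC no pair of 36 passed the correction. In GMP at 3 w.p.i. all 36 pairs had a positive r (median 0.738), and 7 pairs by r and 9 by rho passed the correction. Sums of neutrophil genes ran from 37429 in a KO library to 281065 in a WT library there, and their part in the correlations was not tested. Ebf1 and Pax5 split those libraries into clusters of 3 and 5, too few to test within, so no r is given for their pairs. Irf4 and Foxo1 had r 0.957 (exact permutation p = 4.96e-05, the smallest possible, adjusted p = 0.00179) and rho 0.976 (adjusted p = 0.00536), with r 0.868 without the 2 farthest libraries, and KO 2 and DKO 1 were the highest in both genes. Irf4 was low and nearly equal in the libraries other than KO 2, DKO 1 and WT 2, so this r rested largely on those. Pairs of other genes were not counted in any table, so these counts are not shown to be particular to the 9 factors. The permutations ran across genotypes, so shifts between genotypes enter the p-values. Libraries of a table share their normalisation, and these values describe libraries and not single cells.

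**Figure D4:**
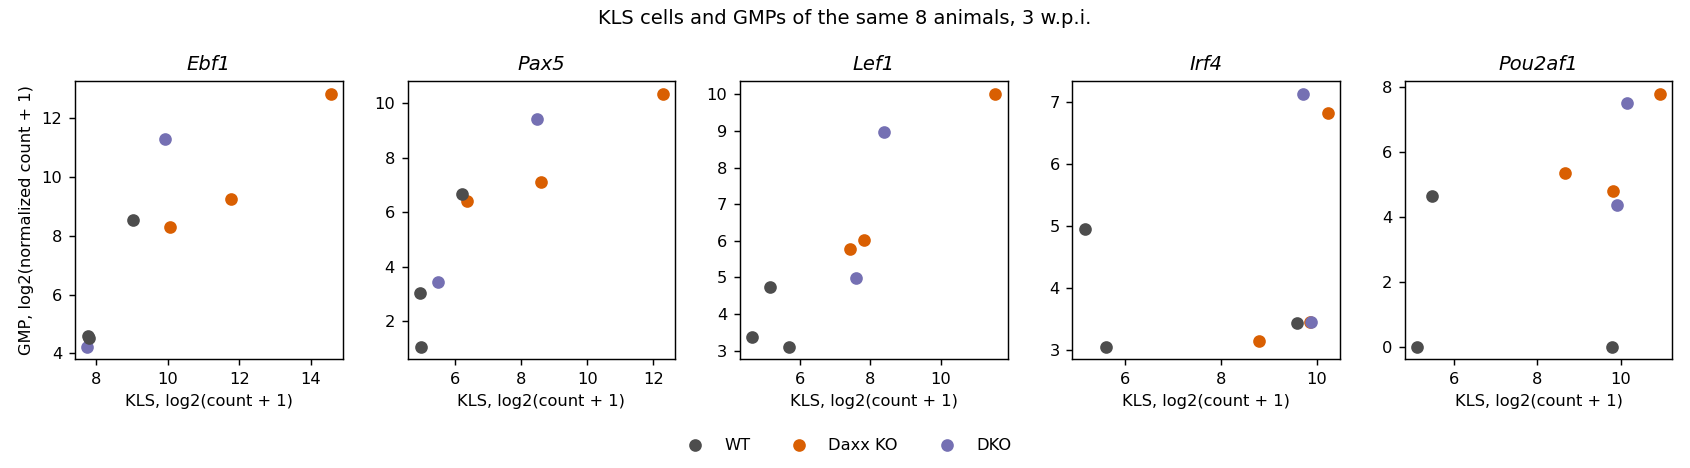
Level of 5 factors in KLS (horizontal axis) and GMP (vertical axis) of the same 8 animals at 3 w.p.i., both as log2(normalised count + 1), coloured by genotype. For Ebf1, Pax5 and Lef1 KO 2 was the highest in both cell types, while for Irf4 DKO 1 was the highest in GMP and KO 2 in KLS.

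Because KLS and GMP of the 3 w.p.i. tables came from the same 8 animals, each factor could be compared between the cell types, an analysis chosen after seeing the data. For Ebf1 the GMP libraries fell into clusters, so no correlation is given. The 3 animals with Ebf1 near 20 in GMP (WT 1, the unnumbered WT animal and DKO 2) were those with the lowest Ebf1 in KLS, at 218, 221 and 216, where the other 5 had 519 or more. The same 3 had the lowest Pax5 in both cell types, with 29.2, 30.0 and 43.4 in KLS and 7.27, 1.09 and 9.86 in GMP. KO 2 was the highest animal for Ebf1, Pax5 and Lef1 in KLS and in GMP.

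Lef1 was lowest in the 3 WT animals in both cell types, with 23.8, 34.4 and 50 in KLS and 9.35, 25.6 and 7.62 in GMP, and highest in KO 2 and DKO 1 in both. DKO 1 and KO 2 also held the highest Irf4 and Pou2af1 in GMP. Pax5, Lef1, Irf4 and Pou2af1 fell into clusters in KLS or GMP as Ebf1 did, so that no r is given for these 5, although over all 8 animals Ebf1, Pax5 and Lef1 passed the correction. Clusters of fewer than 6 animals could not be tested. Among the other 4 factors none had an adjusted exact permutation p under 0.05 over the 9 relations computed. Tcf3 had r 0.706 (exact permutation p = 0.033, adjusted p = 0.0743) and rho 0.738 (p = 0.0458, adjusted p = 0.103), with r 0.392 without the 2 farthest animals. In the 6 animals at 24 w.p.i. no factor had an adjusted exact permutation p under 0.05 (the smallest raw p was that of Ikzf1, r 0.745, exact permutation p = 0.0958).

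The genes whose pattern was most like that of a member were found by the mean Pearson r over the KLS 3 w.p.i., KLS 24 w.p.i., MPP and LT-HSC tables (29 libraries, 13396 genes), as a description with no test. For Ebf1 these were Fgf13 (0.848), Sh3rf1 (0.759) and Myl4 (0.722), followed by Sntb1 and Sorcs2, and for Pax5 Cecr2 (0.886) and Chst3 (0.758), followed by Lipc, Cdon and Fam129c. Irf4 was most like Sdc1 (0.837), which encodes the plasma-cell surface protein CD138, and then Pou2af1 (0.806), Cacna1e (0.781), Jchain (0.781) and Rhpn2. Pou2af1 was most like Prdm1 (0.897), Reln (0.877), Jchain (0.869), Ighm (0.856) and Cacna1e (0.832). Lef1 was closest to Akap12 (0.773), followed by Gfra2, Pald1, Dse and Afap1, and Bcl11a to Akap13 (0.887) and Dcun1d1 (0.870), followed by Fchsd2, 2610307P16Rik and Ssbp2.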

How the data were processed

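RNA libraries of sorted KLS, GMP, MPP3, MPP4 and LT-HSC cells were sequenced. The sample labels name Trizol extraction and the NuGEN Ovation SoLo kit. The methods give that kit for cells of transplanted animals and a SMARTer pico kit for steady-state cells. Per the submitters' processing notes, the authors used CASAVA 1.8.4, cutadapt 1.13, STAR 2.5.3 on mm10 and DESeq2 1.16.1. The counting tool and its strand setting are not given in the sources used here. The deposited values are normalised counts per gene, a signal in which the reads of every library were divided by its size factor within each table.

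From these, whole reads were recovered by dividing each column by the value of 1 read, with 100% of values whole within 0.01 in every library. The planned design covered both counts and normalised values, and the test for normalised values was therefore the main one. Genes whose mean was at least 10 were log2-transformed after adding 1 and fitted in limma 3.58.1 with the trend option, in R 4.3.3, adjusted by Benjamini-Hochberg over all genes of a table and called at an adjusted p under 0.05. Fold changes are on that scale and understate the change of low genes. On the recovered reads edgeR 4.0.16 (quasi-likelihood) called 0 to 4347 genes per comparison, and DESeq2 1.42.0 was the other alternative. The steps were tested on simulated data. Correlations used exact permutation tests in Python 3.11.15, and figures matplotlib 3.10.9. Gene reads per library ranged from 3045852 to 30136629, and values of a few reads carry large counting error.

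Groups came from the labels, or from animal numbers and column-name endings where no label named the column. Where labels name no animal, p-values measure only the spread between libraries, which may be technical. MPP3 and MPP4 libraries bearing the same animal number were taken as 1 animal (correlations of deviations -0.44, -0.04, 0.42 and 0.55). The main fit did not pair them, and the animal block was an unplanned alternative. Column endings were used at 24 w.p.i., in the Pu.1 line and for the unnumbered animal. Their meaning was read from the labelled tables of 3 w.p.i. The 52 columns of repeat-element tables were not used, as they hold none of the 9 genes. The members, the gene lists (early B-cell genes, network regulators, and markers of plasma, mature B, T, plasmacytoid dendritic, neutrophil, myeloid progenitor, erythroid and stem cells) and the comparisons were chosen with earlier results of these data known. The text names the 9 members, at most 4 called genes of a list (the largest rises and falls), and for 6 members the 5 most similar genes. Folds of members are given where the libraries of the groups did not overlap, and for Irf4 and Pou2af1 in KLS at 3 w.p.i., which 1 library decided, a choice made after seeing the data. Jchain, Prdm1 and Dntt are shown by library for the same reason. Alternatives were the pseudocount, the filter, TMM scaling, edgeR, DESeq2, the compared groups only, replicate or animal blocks and leaving out each library.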

Additional observations from a re-analysis of the deposited data

Results flagged for a closer look

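Of 45 sets of libraries examined for a single value far from the rest (a gap over 0.829 of the range in sets of 4 and over 0.568 in the sets of 7), 7 were marked, all in sets of 4. These limits assume normally spread values, but they were applied to counts without a log transform. Several marks also came from 1 library, so no chance rate is given. In MPP3 the library of animal b held 1546 normalised counts of Ebf1 (group median 86.9), 917 of Pax5 (4.13), 606 of Lef1 (12.97) and 62.2 of Pou2af1 (4.49). In MPP4 the library of animal a held 2050.1 of Ebf1 (median 309.5) and 1151 of Pax5 (63.1), and that of animal c 3823 of Bcl11a (2952). These are the libraries MPP3 b and MPP4 a that also had the most detected genes and the highest sums of T-cell genes, apart from MPP4 c.

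Log2 fold changes of Daxx deletion pointed in opposite directions between tables for several factors, with every library of one table on one side and every library of the other on the opposite side. These differences were not tested, and the tables were normalised separately. Ebf1 had -5.92 in untimed KLS against 3.93 at 3 w.p.i. and 1.24 at 24 w.p.i. Pax5 had -5.26 in untimed KLS against 3.72 at 3 w.p.i. Lef1 had -3.38 against 3.78 and 1.64. In GMP, Tcf3 had -0.55 untimed against 0.29 at 3 w.p.i. and 0.21 at 24 w.p.i., and Bcl11a 0.38 untimed against -0.65 at 24 w.p.i. Bcl11a also differed in direction between untimed KLS (-0.78) and untimed GMP (0.38). Labels of the untimed libraries name no time or Cre line, and by the study's methods they may be donor cells of transplanted, irradiated recipients. Transplantation, time, batch and, by the methods, library kit cannot be told apart in these contrasts with the timed tables.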

How the results depend on the processing

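Leaving out each library in turn gave 3 to 7 members called in untimed KLS (7 with all), 0 to 3 in untimed GMP (3), 0 to 2 in KLS at 3 w.p.i. for KO against WT (0), 0 to 3 for DKO against WT (1) and 0 to 2 for DKO against KO (1), 0 to 3 in KLS of the Pu.1 line (0), 2 to 8 in its GMP (7), 0 to 2 in KLS at 24 w.p.i. (0) and 0 to 1 in its GMP (1). Where 1 library was left in a group it was assumed to vary like the others, and why the counts rose or fell was not tested. Among other settings, DESeq2 called 2 members in KLS at 3 w.p.i. for KO against WT, 2 for DKO against KO and 3 in KLS at 24 w.p.i., and the compared groups alone called 2 for DKO against WT, for which the cause was not tested. The log2 fold change of Ikzf1 in GMP of the Pu.1 line reversed from -0.07 to 0.00155 with TMM scaling and 0.0273 with edgeR. Of the other log2 fold changes outside left-out libraries, 333 kept their direction and side of the threshold and 9 were newly past it.

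Replicate numbers of the labels did not pair samples (correlations of deviations -0.0095 in untimed KLS, -0.111 in untimed GMP). With the replicate number as a block 3343 genes and 7 members were called in untimed KLS, 3722 and 3 in untimed GMP (4921 and 3 with the pairing crossed, chosen after seeing the data), and 1596 and 5 for DKO against KO in KLS, with 1 residual degree of freedom. With the animal as a block no gene was called between MPP4 and MPP3.

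Counts of all genes called moved by more than 1.5 times with DESeq2 in KLS at 3 w.p.i. for KO against WT (342 against 39), in GMP at 3 w.p.i. (79 against 13, 263 against 40 and 280 against 8), in KLS at 24 w.p.i. (536 against 133, split 290 higher and 246 lower against 51 and 82) and in GMP at 24 w.p.i. (1033 against 613). They moved in KLS of the Pu.1 line (190) to 788 with TMM, 1919 with edgeR (1676 higher, 243 lower) and 1239 with DESeq2, in untimed KLS to 1751 without the filter (3118), in GMP for DKO against WT to 5 with the compared groups only, and for DKO against KO (8) to 17 with pseudocount 5, 13 without the filter, 18 with TMM, 20 with edgeR and 0 with the compared groups only. Left-out libraries gave 419 to 3290 genes in untimed KLS, 2162 to 4448 in untimed GMP, 8 to 137, 574 to 2975 and 672 to 2481 in KLS at 3 w.p.i., 4 to 11, 2 to 90 and 0 to 71 in GMP at 3 w.p.i., 13 to 6905 and 151 to 8163 in KLS and GMP of the Pu.1 line, and 5 to 220 and 79 to 730 in KLS and GMP at 24 w.p.i. Groups of 2 to 4 libraries limit every comparison, and values of a few reads, as for Pax5, Irf4, Lef1 and Pou2af1 in many libraries, carry large counting error.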
